A study of Macaca mulatta with 4 samples.

Results

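The T cell coreceptors CD4, CD8A and CD8B, together with CD40LG, the ligand by which helper T cells stimulate cells that carry CD40, were followed by name through macaque blood. These 4 genes are 4 of the 15354 gene rows of the deposited single-cell count tables. They were taken as a named group, with earlier results of these data known. The study transplanted islets grown from human stem cells into macaques, and its blood mononuclear cells make up 4 libraries, 1 for each group. Pre-IS was taken before immunosuppression, and Post-IS after immunosuppression but before the transplant. The remaining libraries date from 4 weeks (4 wpt) and 8 weeks (8 wpt) after it. The labels give no age, sex, animal number or immunosuppressive agent for any group, and they do not say whether the 4 libraries came from 1 animal.

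CD4 is a single chain that binds MHC class II, and CD8 is a pair of chains that binds MHC class I. The pair is either CD8A with CD8B, the usual form on cytotoxic T cells that recognise peptides, or CD8A with itself, a form also found on NK cells and on innate-like T cells. Macaque NK cells are commonly recognised in blood by CD8A without the CD3 chains of the T cell receptor complex. Coreceptors bring the kinase LCK to the receptor, and mature T cells usually keep either CD4 or CD8. CD40LG is carried mainly by activated helper T cells. Its transcription depends on calcium, calcineurin and NFAT, and its receptor CD40 stands on B cells, monocytes and dendritic cells.

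The tables held 6993 cells, from 603 in Post-IS to 2580 at 8 wpt, with median depths of 1168 to 3551 UMIs per cell. A UMI, or unique molecular identifier, stands for 1 captured RNA molecule. Post-IS was the shallowest library and 4 wpt the deepest. Of the barcodes, 25 stood in more than 1 library. The submitters' cell labels were used as deposited, and 93.9% to 99.3% of T-labelled cells carried a CD3D, CD3E or CD3G UMI, against 22.2% to 41.9% of NK-labelled cells. Since each group was 1 library, no test between groups was possible. All 95% intervals cover counting error only, so a difference beyond an interval is one between these libraries.

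T cells carried all 4 genes in all 4 libraries, and their order over the libraries differed from gene to gene. CD8B was near 94 CPM in 3 libraries, CD8A was lowest in Post-IS, CD40LG was lowest at 4 wpt, and CD4 was highest in Pre-IS. Levels are UMIs of the gene per 1000000 UMIs of the labelled cells (CPM), with exact Poisson 95% intervals. There were 841 T cells in Pre-IS, 115 in Post-IS, 889 at 4 wpt and 1174 at 8 wpt.

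CD4 stood at 119 CPM (102 to 139) in Pre-IS, 83.5 (43.1 to 146) in Post-IS, 102 (91.3 to 114) at 4 wpt and 88.2 (76.3 to 101) at 8 wpt. The order therefore ran from Pre-IS down through 4 wpt and 8 wpt to Post-IS, but neighbours in it had overlapping intervals. The 8 wpt level was 1.35-fold below Pre-IS (95% interval 1.09 to 1.67, exact conditional binomial). CD4 molecules were sparse in each positive T cell, with a mean of 1.00 to 1.40 UMIs and at most 5.

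CD8A, the chain common to both CD8 forms, stood at 191 CPM (169 to 216) in Pre-IS, 76.5 (38.2 to 137) in Post-IS, 226 (210 to 243) at 4 wpt and 192 (174 to 211) at 8 wpt. Post-IS was the low library, and its interval met none of the other 3. The Post-IS level was 2.50-fold below Pre-IS (1.37 to 5.07). It rests on 11 UMIs in 9 cells. At 4 wpt CD8A was 1.18-fold above Pre-IS (1.02 to 1.37). The NK marker list (KLRD1, KLRF1, NCR1, NCR3, NCAM1, NKG7, GNLY, TYROBP and FCER1G) was also lowest in T cells of Post-IS. Its summed level was 3248 CPM in Pre-IS, 1760 in Post-IS, 2315 at 4 wpt and 3380 at 8 wpt, with 8 of 9 genes detected and NCAM1 at 0 in each. The B cell and monocyte lists were highest in T cells of Post-IS, at 104 and 139 CPM, from 15 UMIs in 3 cells and 20 UMIs in 17 cells. Their ranges in the other libraries were 21.8 to 31.9 and 28.1 to 73.4 CPM. The part of such cells in the CD8A level was not tested.

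CD8B, the chain of the conventional CD8 pair, stood at 94.1 CPM (78.4 to 112) in Pre-IS, 69.6 (33.4 to 128) in Post-IS, 94 (83.6 to 105) at 4 wpt and 94.4 (82.1 to 108) at 8 wpt. All 4 intervals overlapped. The ratio to Pre-IS was 0.999 (0.809 to 1.24) at 4 wpt and 1.00 (0.802 to 1.26) at 8 wpt. In Post-IS, with 10 UMIs, that ratio was 0.740 (0.346 to 1.41), an interval that holds both equality and a 2-fold lower level.

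CD40LG stood at 137 CPM (118 to 158) in Pre-IS, 181 (118 to 265) in Post-IS, 89.2 (79.1 to 100) at 4 wpt and 152 (136 to 169) at 8 wpt. The 4 wpt library was low, and its interval met none of the others, which overlapped each other. CD40LG at 4 wpt was 1.54-fold below Pre-IS (1.27 to 1.85) and 2.03-fold below Post-IS (1.30 to 3.03). At 8 wpt it was 1.71-fold above 4 wpt (1.45 to 2) and 1.11-fold above Pre-IS (0.926 to 1.34).

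**Figure D1:**
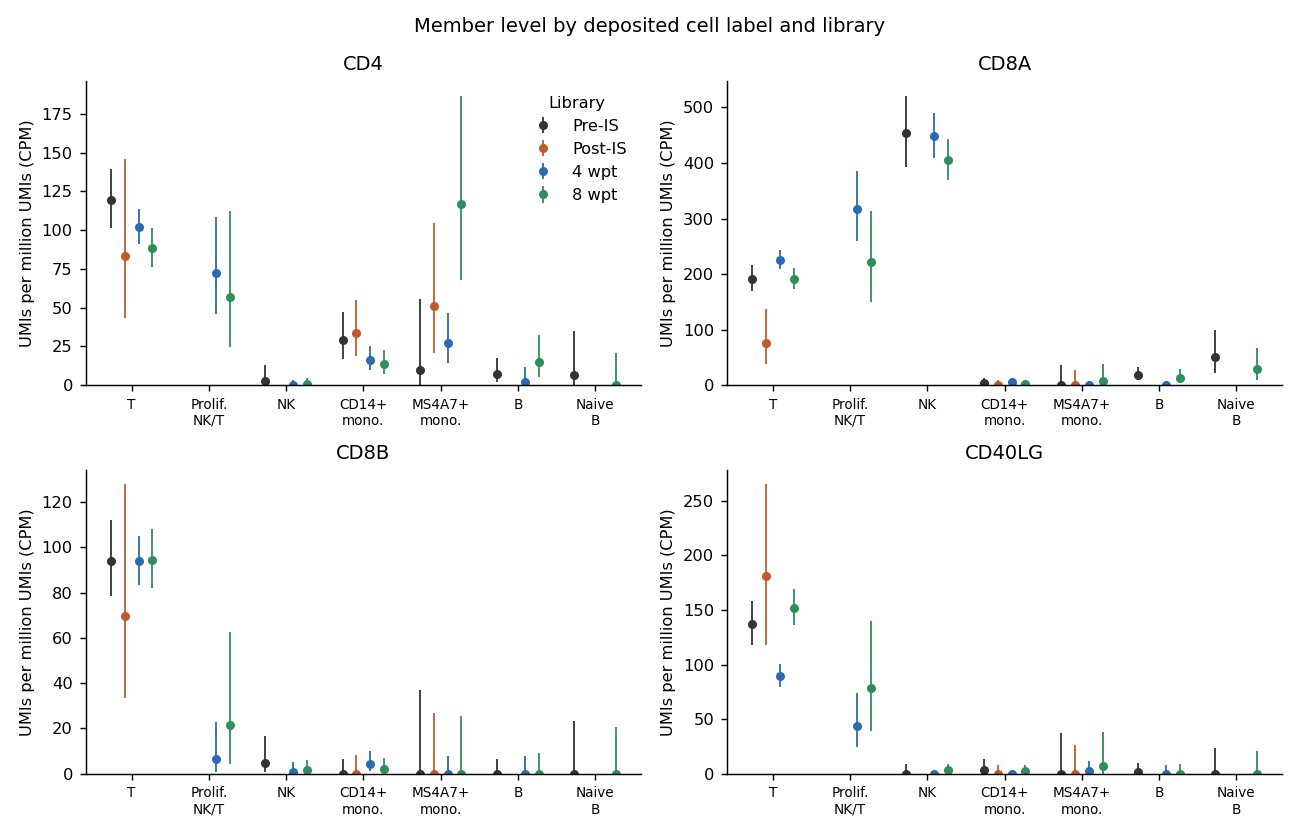
Level of each gene in CPM (vertical axis, linear) in the deposited cell labels (horizontal axis) with at least 20 cells in the library, 1 point per library with its exact Poisson 95% interval. CD8A was highest in NK cells, CD8B and CD40LG were near 0 outside T and proliferating cells, and CD4 was also found in monocytes. In proliferating cells CD8B was found in only 1 of 41 at 4 wpt and 1 of 30 at 8 wpt.

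Over all genes, fold differences of this size were common. A gene was called where its point ratio reached 1.5-fold and both libraries together held at least 20 UMIs. For Post-IS over Pre-IS, 14.4% of genes were called higher and 25.4% lower in T cells, and of the 4 members 1, CD8A, was called lower. Between 4 wpt and Pre-IS, 13.3% of genes were called higher and 7.15% lower, and CD40LG was the 1 member called, as lower. At 8 wpt against Pre-IS the shares were 9.08% higher and 5.52% lower, and no member was called. These comparisons share the Pre-IS library.

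The share of T cells with a UMI followed depth as well as level. CD4 was found in 16.1% of T cells in Pre-IS, 10.4% in Post-IS, 26.0% at 4 wpt and 13.7% at 8 wpt. After each cell was thinned to 1000 UMIs, those shares were 10.5%, 9.94%, 9.45% and 7.67%, so the high share at 4 wpt was not seen at equal depth. CD8A was found in 20.5%, 7.83%, 28.5% and 23.6% of T cells, and in 14.9%, 6.41%, 16.2% and 16.0% after thinning. The Post-IS share of CD8A stayed lowest at equal depth. CD8B was found in 9.51%, 6.96%, 15.0% and 11.5%, and thinned shares were within 6.53% to 7.60%. For CD40LG the shares as counted were 17%, 18.3%, 20.9% and 21.0%. Thinning changed the order, to 12.4%, 15.8%, 7.98% and 13%, with 4 wpt lowest. Thinning left out T cells under 1000 UMIs, so that 753, 85, 854 and 1122 T cells entered, in library order. In B cells, which should lack CD4, it was found in 1.14% of 351 cells in Pre-IS and 1.69% of 178 at 8 wpt, at median depths of 1512 and 2134.5 UMIs against 1526 and 1810 in T cells.

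**Figure D2:**
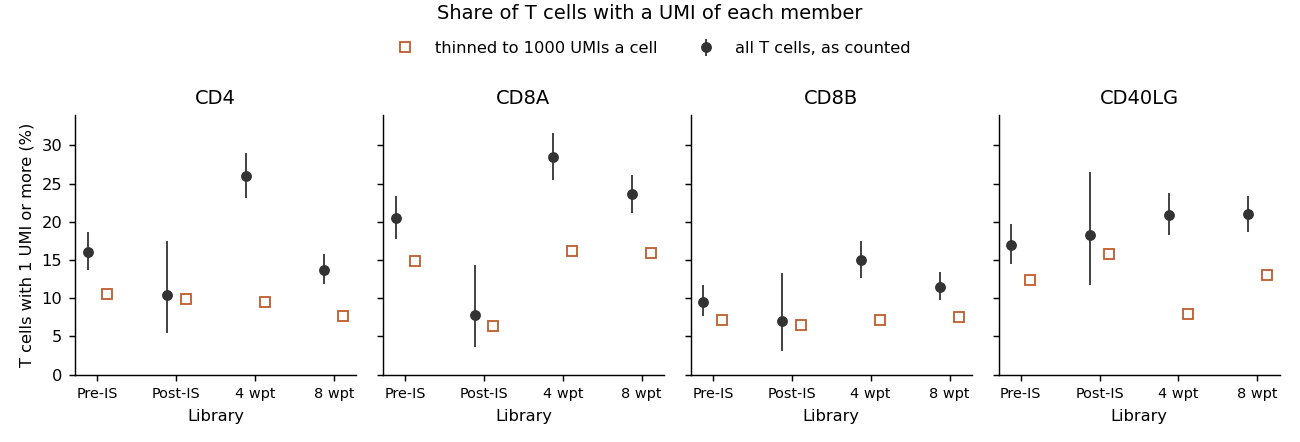
Percent of T cells with at least 1 UMI of each gene (vertical axis) by library (horizontal axis). Filled points count all T cells with exact Clopper-Pearson 95% intervals, and open squares are means of 20 draws thinned to 1000 UMIs a cell. The high 4 wpt values for CD4 and CD8B were at the level of other libraries after thinning, and the CD40LG value at 4 wpt became the lowest.

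CD4 and CD8 messages kept apart in single T cells. Cells were classed as CD4 only, CD8 only (a CD8A or CD8B UMI and no CD4), both or neither. Only 8 of 3019 T cells held both, namely 4 in Pre-IS, 0 in Post-IS, 2 at 4 wpt and 2 at 8 wpt. None of the 8 had more than 1 UMI on both sides, 4 carried CD8B, and 0 met the rule for possible doublets. That rule looks for B cell or monocyte UMIs or very high depth. It does not look for a CD4 T cell joined to a CD8 T cell, so such doublets were not tested. Cells with both had a median depth of 2011 UMIs against 1526 for all T cells of Pre-IS. The medians were 4271.5 against 3626 for the 4 wpt library, and 3632 against 1810 for 8 wpt. Among CD4-positive T cells, a CD8 UMI was found in 2.96% of 135 (95% interval 0.813 to 7.41) in Pre-IS, 0.866% of 231 (0.105 to 3.09) at 4 wpt and 1.24% of 161 (0.151 to 4.42) at 8 wpt. Among CD4-negative T cells, those shares were 28.3%, 41.2% and 31.0%. In Post-IS, 0 of 12 CD4-positive cells carried CD8, which allows a share of up to 25.0% at 3 counts of the total (exact 95% upper limit 26.5%), against 13.6% of 103 CD4-negative cells.

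The CD8 chains did the opposite and were found together. Of CD8A-positive T cells, 27.9% in Pre-IS (21.3 to 35.2) also had CD8B. That share was 44.7% at 4 wpt (38.4 to 51.0) and 34.7% (29.1 to 40.6) at 8 wpt. In CD8A-negative T cells the shares were 4.78%, 3.14% and 4.35%. Post-IS showed 3 of 9 CD8A-positive cells and 5 of 106 CD8A-negative cells. The gene models of CD8A and CD8B overlap in the RefSeq annotation of the assembly T2T-MMU8v2.0, and how reads shared by both were counted is not given in the sources used here.

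Many T cells showed no coreceptor UMI at all, and in Pre-IS, Post-IS and 8 wpt these were the majority. The class with neither held 60.2% of T cells in Pre-IS, 77.4% in Post-IS, 43.5% at 4 wpt and 59.5% at 8 wpt. At 1000 UMIs a cell those values were 70.7%, 78.8%, 70.9% and 72.6%. Absence of a UMI is therefore no measure of double-negative T cells. CD4-only cells were 15.6%, 10.4%, 25.8% and 13.5% of T cells as counted. CD8-only cells were 23.8%, 12.2%, 30.5% and 26.7%.

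Among T cells with 1 kind of coreceptor, CD4-only cells made up 39.6% of 331 in Pre-IS (34.3 to 45.1), 46.2% of 26 in Post-IS (26.6 to 66.6), 45.8% of 500 at 4 wpt (41.4 to 50.3) and 33.6% of 473 at 8 wpt (29.4 to 38.1). As counted, 4 wpt lay above 8 wpt with no overlap of the intervals. At equal depth the shares were 35.7%, 46.6%, 32.4% and 28.0%, and 4 wpt lay below Pre-IS. The place of 4 wpt in this order thus changed with depth. With CD8 read from CD8B alone, the share was 62.9%, 60%, 63.6% and 54.4%, point values over 50% in each library. No intervals are given for these shares, so a majority is not shown for each library. In Post-IS only 12 T cells had CD4 and 8 had CD8B. With at least 2 UMIs required of a coreceptor, it was 16.7%, 0%, 25.4% and 17.2%. No Post-IS T cell held more than 1 CD4 UMI, so its 0% was fixed by the rule. That rule also adds CD8A and CD8B UMIs, while CD4 is a single gene.

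**Figure D3:**
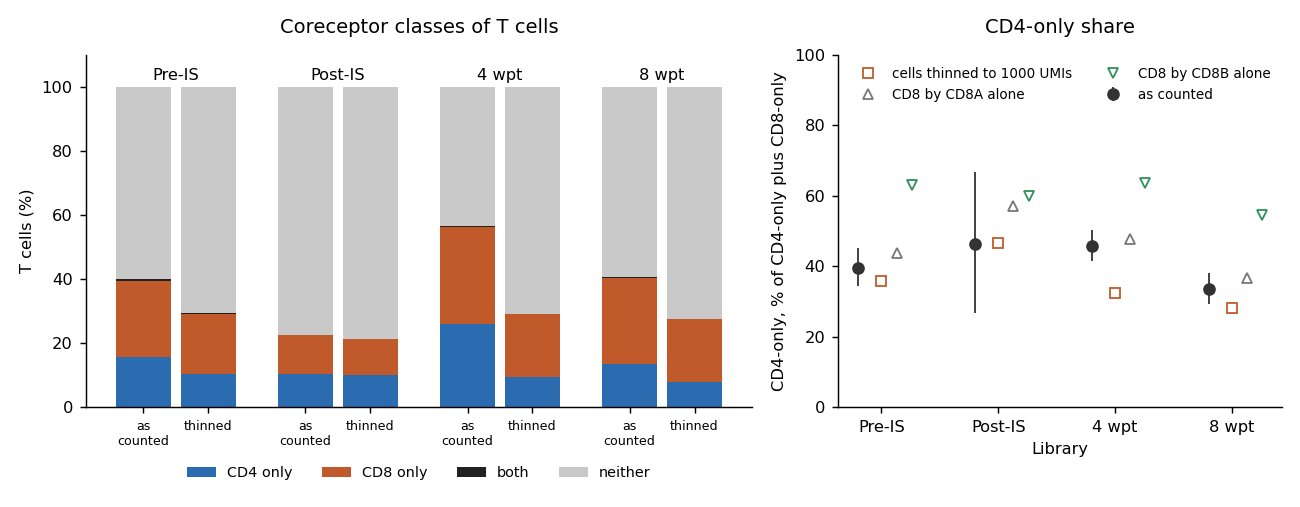
Left, percent of T cells (vertical axis) in each coreceptor class by library, as counted and thinned to 1000 UMIs a cell. Right, CD4-only cells as a percent of CD4-only plus CD8-only T cells (vertical axis) by library, as counted with exact Clopper-Pearson 95% intervals, thinned, and with CD8 read from a single chain. The class with neither coreceptor was the largest in each library. When CD8 was read from CD8B alone, the CD4-only share exceeded 50% in all 4 libraries as a point value, drawn without an interval.

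CD40LG sat with CD4 and was nearly absent from CD8-only T cells in Pre-IS, 4 wpt and 8 wpt. Post-IS had too few CD8-only cells to show this. In CD4-only cells its level was 271 CPM in Pre-IS (208 to 347), 337 in Post-IS, 150 at 4 wpt (126 to 178) and 246 at 8 wpt (196 to 304). In CD8-only cells it was 9.51 CPM from 3 UMIs in Pre-IS, 6.98 from 7 UMIs at 4 wpt and 3.42 from 2 UMIs at 8 wpt. CD4-only cells exceeded CD8-only cells by 28.5-fold in Pre-IS (9.31 to 142), 21.5-fold at 4 wpt (10.2 to 54.6) and 71.9-fold at 8 wpt (19.3 to 603). In Post-IS, 6 UMIs in 12 CD4-only cells stood against 0 in 14 CD8-only cells, a fold of 2.20 with the 0 set to a floor of 3 counts and an exact 95% lower limit of 1.30.

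The split was as plain by cells. A CD40LG UMI was found in 33.6% of CD4-only cells in Pre-IS (25.6 to 42.4), 41.7% in Post-IS, 38.0% at 4 wpt and 37.7% at 8 wpt. Among CD8-only cells the shares were 1.5% of 200, 0% of 14, 2.21% of 271 and 0.637% of 314. The 0 of 14 allows a share of up to 21.4% at 3 counts (exact upper limit 23.2%). Median depths of the CD4-only and CD8-only classes were 1688 and 1491 UMIs in Pre-IS, 3781 and 3713 at 4 wpt, and 2026 and 1733.5 at 8 wpt.

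T cells with neither coreceptor detected lay between these classes in level and held at least 50% of the CD40LG-positive cells of each library. Their level was 149 CPM in Pre-IS, 188 in Post-IS, 112 at 4 wpt and 193 at 8 wpt. They made up 66.4% of CD40LG-positive T cells in Pre-IS, 76.2% in Post-IS, 50% at 4 wpt and 74.0% at 8 wpt. As counted, the low CD40LG level at 4 wpt was present in both classes that carry the gene. It was 1.80-fold below Pre-IS (1.31 to 2.45) in CD4-only cells and 1.34-fold below it (1.04 to 1.72) in cells with neither. From 4 to 8 wpt the level was 1.63-fold higher (1.23 to 2.16) and 1.73-fold higher (1.40 to 2.14), in that order. The classes are set by detection, so the cells in them change with depth. The class with neither held 60.2% of T cells in Pre-IS and 43.5% at 4 wpt as counted. At equal depth it held 70.7% and 70.9%. These class levels and shares therefore do not compare the same kinds of cells, and the part of depth in them was not tested.

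**Figure D4:**
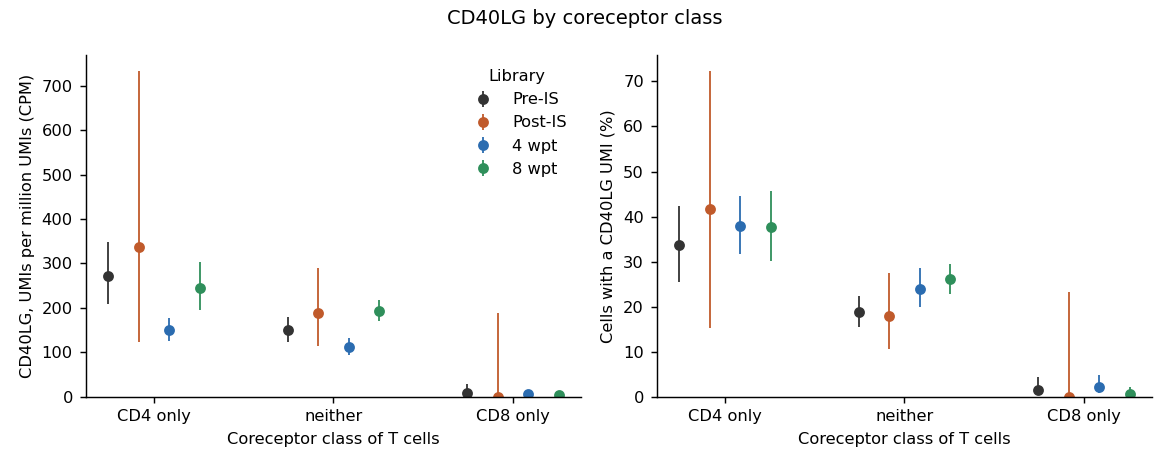
CD40LG in T cells by coreceptor class (horizontal axis), as CPM with exact Poisson 95% intervals on the left and as percent of cells with a UMI with exact Clopper-Pearson 95% intervals on the right, 1 point per library. Of the 3 classes drawn, CD4-only cells were highest and CD8-only cells lowest in each library. At 4 wpt the CPM was low in CD4-only cells and in cells with neither coreceptor. The percent positive was not low there, but it is as counted, and 4 wpt was the deepest library. Thinned to equal depth, the percent in all T cells was lowest at 4 wpt, at 7.98%. The other libraries had 12.4% to 15.8%. Class percents are not given at equal depth.

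CD40, the receptor of CD40LG, was highest in naive B cells, followed by B cells and dendritic cells, in Pre-IS, 4 wpt and 8 wpt. In T cells it had 0 UMIs in 3 libraries and 2 UMIs at 8 wpt. In B cells its level was 152 CPM in Pre-IS (122 to 187), 95.3 (69.8 to 127) at 4 wpt and 107 (77.1 to 143) at 8 wpt. Naive B cells were higher, with 403 CPM in Pre-IS (311 to 515) and 322 at 8 wpt (244 to 417). Post-IS held only 12 B cells and 1 naive B cell, so the receptor could not be read in B cells there. In cells labelled Dentritic cell CD40 stood at 81.1 CPM (40.5 to 145) in Pre-IS, 11.1 (1.35 to 40.1) at 4 wpt and 61.4 (28.1 to 117) at 8 wpt. In CD14+ monocytes it stood at 9.12 CPM (2.96 to 21.3) in Pre-IS, 0 (up to 8.22) in the 329 cells of Post-IS, 5.10 (1.87 to 11.1) at 4 wpt and 14.4 (8.08 to 23.8) at 8 wpt. The Post-IS limit overlapped the intervals of the other libraries.

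The CD4-only and CD8-only classes differed in many other genes. The comparison was read in Pre-IS, 4 wpt and 8 wpt, since Post-IS had 12 and 14 cells. In Pre-IS 11.1% of genes were called higher and 19.1% lower in CD4-only cells, at 4 wpt 10.2% and 13.3%, and at 8 wpt 9.94% and 18.1%. Against that, the helper and naive T cell list had 8 of 10 tested genes higher in Pre-IS, 11 of 16 at 4 wpt and 8 of 12 at 8 wpt, with 0 lower in each. Its median log2 ratio was 1.23, 0.93 and 1.01, where the median over all tested genes was -0.09, -0.04 and -0.08.

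IL7R, the interleukin-7 receptor of resting T cells, was 2.35-fold higher in CD4-only cells in Pre-IS and 2.52-fold higher at 8 wpt. At 4 wpt its ratio was 1.33 (1.21 to 1.46), under the 1.5-fold needed for a call. LEF1, a partner of TCF7 in naive T cell transcription, was 2.83-fold, 2.53-fold and 2.08-fold higher in Pre-IS, 4 wpt and 8 wpt. ICOS, a costimulatory receptor of helper T cells, was 3.97-fold, 3.78-fold and 4.55-fold higher. CD28, the main costimulatory receptor, had too few UMIs in Pre-IS and was 4.00-fold and 4.65-fold higher at 4 and 8 wpt.

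The cytotoxic list was on the CD8 side. In CD4-only cells 14 of 16 tested genes were lower in Pre-IS, 20 of 20 at 4 wpt and 19 of 20 at 8 wpt. The median log2 ratios were -2.56, -3.01 and -2.03. The 1 gene called higher was the chemokine CCL4L1 in Pre-IS. PRF1, which encodes perforin, was 11.6-fold higher in CD8-only cells in Pre-IS (6.49 to 22.8), 35.6-fold at 4 wpt and 9.02-fold at 8 wpt. CCL5, a chemokine of effector cells, was 44.4-fold, 42.2-fold and 13.3-fold higher.

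Genes were also ranked by their smallest difference over the 3 libraries. Those that ranked first toward CD4-only cells were TRBV9, IL6R, TIAM1, ICOS, CAPG, ITGB1, UPP1 and ITM2A. TRBV9, a variable segment of the T cell receptor beta chain, was 7.59-fold higher in Pre-IS (3.14 to 22.1), 8.15-fold at 4 wpt (4.89 to 14.4) and 8.76-fold at 8 wpt (5.17 to 15.7). IL6R, the interleukin-6 receptor, was 5.24-fold, 18.3-fold and 5.41-fold higher. TIAM1, an activator of the GTPase RAC1, was 6.07-fold, 4.47-fold and 5.58-fold higher. Those that ranked first toward CD8-only cells were CTSW, KIR3DH, CCL5, TYROBP, GZMA, GNLY, ITGAX and PRF1. CTSW, a cathepsin of cytotoxic cells, was 23.8-fold higher in Pre-IS, 139-fold at 4 wpt and 23.7-fold at 8 wpt. KIR3DH is a killer-cell immunoglobulin-like receptor of a gene family with near-identical copies, so its counts are uncertain.

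For genes that act with the coreceptors, the share called between the classes was below or near that of all tested genes. Of the coreceptor and proximal T cell receptor signalling list, 1 gene was higher and 2 lower of 16 in CD4-only cells in Pre-IS, 2 and 1 of 17 at 4 wpt, and 2 and 2 of 17 at 8 wpt. These few genes are named after their values were seen. PTPN22, a phosphatase that restrains receptor signalling, was lower in CD4-only cells in all 3 libraries, at ratios of 0.460, 0.361 and 0.419. TESPA1, a signalling protein found in thymocytes, was 3.24-fold higher at 4 wpt and 3.58-fold at 8 wpt. The remaining calls were UBASH3A higher and ZAP70 lower in Pre-IS, LAT higher at 4 wpt, and PAG1 higher and PTPN6 lower at 8 wpt.

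The CD40 signalling list had 1 higher and 0 lower of 3 in Pre-IS, 3 and 0 of 11 at 4 wpt, and 2 and 2 of 7 at 8 wpt. Of all tested genes, 11.1% were higher and 19.1% lower in Pre-IS. Those shares were 10.2% and 13.3% at 4 wpt, and 9.94% and 18.1% at 8 wpt. Each list count rests on few genes. BIRC3, an inhibitor of apoptosis that binds TRAF proteins, was called higher in CD4-only cells in each of these libraries, at 1.5-fold, 2.07-fold and 3.04-fold. The Pre-IS value rests on 12 and 11 UMIs, and its interval of 0.608 to 3.76 holds equality. Beside the same shares of all tested genes, the calcineurin and NFAT list had 0 higher and 2 lower of 8, 2 and 1 of 10, and 0 and 3 of 10. PPP3CA, a catalytic subunit of calcineurin, was lower in CD4-only cells in each, at ratios of 0.307, 0.236 and 0.415. Both genes were singled out after their values were seen.

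The same lists were read between libraries in all T cells. For Post-IS over Pre-IS the cytotoxic list had 0 of 18 tested genes higher and 13 lower, with a median log2 ratio of -1.29 against -0.09 over all tested genes. GZMB, the main granzyme of cytotoxic cells, stood at 1865 CPM in Pre-IS and 369 CPM in Post-IS. The helper and naive list had 4 higher and 3 lower of 13, the signalling list 2 and 5 of 17, the CD40 list 1 and 3 of 10, and the calcineurin list 0 and 1 of 10. Beside these stand the 14.4% higher and 25.4% lower of all tested genes, so that the lower calls of the signalling and CD40 lists were near the general rate. ZAP70, the kinase that follows LCK, stood at 292 CPM in Pre-IS and 90.5 in Post-IS. At 4 wpt, where 13.3% of all tested genes were higher and 7.15% lower, the cytotoxic list had 0 higher and 6 lower of 21, the helper and naive list 3 and 1 of 19, the signalling list 1 and 0 of 17, and the CD40 and calcineurin lists 0 and 0 of 12 and 11. At 8 wpt, with 9.08% and 5.52% of all tested genes called, the counts were 2 higher and 1 lower of 21 cytotoxic genes, 0 and 1 of 18 helper and naive genes, 1 and 0 of 17 signalling genes, 0 and 1 of 12 CD40 genes, and 1 and 0 of 11 calcineurin genes.

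CD8-positive T cells were of more than 1 kind by their other genes. T cells with CD8A and no CD8B UMI were 124 of 204 CD8-positive cells in Pre-IS, 6 of 14 in Post-IS, 140 of 273 at 4 wpt and 181 of 316 at 8 wpt. Their summed NK marker level was 9832 CPM in Pre-IS, 15180 in Post-IS, 9512 at 4 wpt and 9404 at 8 wpt. In T cells with CD8B it was 3203, 1389, 1951 and 3408 CPM, and in CD4-only cells 520, 337, 426 and 1049. The order of the 3 kinds was the same in all 4 libraries, and intervals of the kinds did not overlap within a library. In Post-IS the CD8B-positive and CD4-only values rest on 17 and 6 UMIs.

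The cytotoxic list, which shares NKG7, GNLY and KLRD1 with the NK markers, had the same order. It summed to 19568, 18433, 20032 and 19196 CPM in cells with CD8A alone. The sums were 7953, 3023, 6321 and 8804 CPM in CD8B-positive cells, and 2322, 56.1, 1259 and 3194 CPM in CD4-only cells. In Post-IS the CD4-only value rests on 1 UMI (1.42 to 313 CPM) and the CD8B-positive value on 37 UMIs. Helper and naive genes ran the other way in each library, from 3909, 5109, 3316 and 3110 CPM in CD4-only cells to 1380, 1491, 1444 and 1197 CPM in cells with CD8A alone. T cell markers spanned a narrower range, from 2846 to 4146 CPM over the 3 kinds and 4 libraries. Cells with CD8A alone include cells whose CD8B was missed at this depth, and how many was not tested. Of the gamma delta T cell genes, TRGC2 was the 1 in the tables, and it gave at most 14.0 CPM in these kinds.

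**Figure D5:**
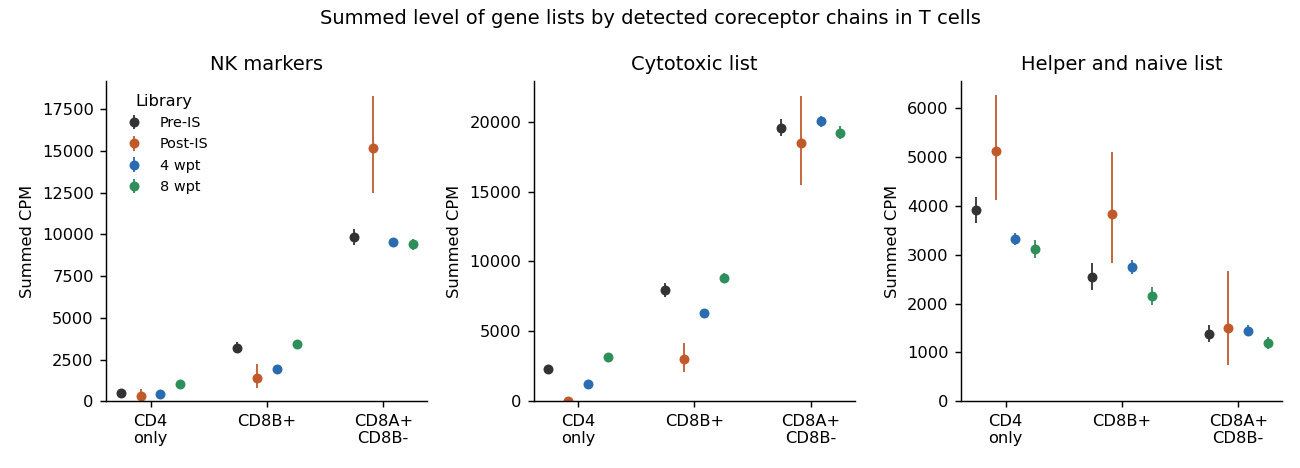
Summed CPM (vertical axes) of the NK marker, cytotoxic, and helper and naive lists in T cells by detected coreceptor chains (horizontal axis), 1 point per library with exact Poisson 95% intervals. NK marker and cytotoxic sums were highest in cells with CD8A and no CD8B, and helper and naive sums were highest in CD4-only cells.

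NK cells were the strongest carriers of CD8A and had almost no CD8B. CD8A stood at 454 CPM (393 to 522) in Pre-IS, 399 (160 to 821) in the 9 NK cells of Post-IS, 448 (408 to 490) at 4 wpt and 405 (370 to 443) at 8 wpt. All 4 intervals overlapped each other, and each lay above that of T cells in the same library. CD8A was found in 51.0% of NK cells in Pre-IS, 44.4% in Post-IS, 70.0% at 4 wpt and 47.3% at 8 wpt. At equal depth those shares were 36.5%, 32.9%, 34.3% and 31.6%. CD8B was found in 5 of 1195 NK cells.

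The chain makeup separated NK from T cells. CD8B took 33.0% of CD8 chain UMIs in T cells of Pre-IS (28.3 to 37.9), 47.6% in Post-IS (25.7 to 70.2), 29.4% (26.6 to 32.3) at 4 wpt and 33.0% (29.4 to 36.8) at 8 wpt. In NK cells it took 1.00% (0.121 to 3.57), 0% of 7 UMIs, 0.212% (0.00538 to 1.18) and 0.412% (0.0499 to 1.48). CD8A was as high in NK cells without a CD3 UMI as in those with one. In Pre-IS it was 457 CPM in NK cells with a CD3 UMI and 452 in those without. The pairs were 442 and 453 CPM at 4 wpt, and 412 and 401 at 8 wpt.

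Genes of the NK, T and cytotoxic lists were then compared between NK cells with and without a CD8A UMI, with no test. A UMI is found more readily in deeper cells, and depth was not matched between these groups. KLRD1, which encodes the CD94 receptor chain, had ratios of 0.976, 1.00 and 1.01 between CD8A-positive and CD8A-negative NK cells in Pre-IS, 4 wpt and 8 wpt. GNLY, which encodes granulysin, had ratios of 1.11 (1.05 to 1.17), 1.35 (1.29 to 1.41) and 1.03 (0.996 to 1.06). Its 8 wpt interval holds equality. GZMK, a granzyme of the cytotoxic list, was lower in CD8A-positive cells in all 3, at 0.779 (0.647 to 0.938), 0.680 (0.597 to 0.776) and 0.841 (0.735 to 0.962), and was named after its values were seen. Other genes differed at 4 wpt too. NKG7 was at 1.26 (1.15 to 1.37) and GZMB at 1.31 (1.25 to 1.37). CCL5 was at 0.777 (0.702 to 0.860) and CD3E at 0.436 (0.310 to 0.617). In Pre-IS the intervals of these genes held equality, and at 8 wpt all but that of CCL5, at 0.851 (0.792 to 0.915), did. CD4 had 2 UMIs in all NK cells together. CD40LG had 0 UMIs in the 257 NK cells of Pre-IS and the 270 of 4 wpt, which allows shares of cells with a UMI of up to 1.17% and 1.11% at 3 counts (exact upper limits 1.43% and 1.36%). It had 2 positive NK cells at 8 wpt, both with CD3.

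Proliferating NK/T cells numbered 8, 2, 41 and 30 in library order and were read at 4 and 8 wpt only. At 4 wpt they had CD8A at 318 CPM (259 to 386), between the T and NK levels with no overlap with either. CD8A at 8 wpt was 221 CPM (150 to 313), overlapping T cells. CD8B was found in 1 cell of 41 and 1 of 30. CD4 stood at 72.4 CPM (45.9 to 109) and 57.0 (24.6 to 112), with intervals that overlapped those of T cells. CD40LG stood at 44.0 CPM (24.1 to 73.9) at 4 wpt, below the T cell interval, and at 78.3 (39.1 to 140) at 8 wpt.

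CD4 UMIs were found at low levels in monocytes, and monocytes of primates are known to carry CD4. In CD14+ monocytes it stood at 29.2 CPM (16.7 to 47.4) in Pre-IS, 33.4 (18.7 to 55.1) in Post-IS, 16.2 (9.73 to 25.2) at 4 wpt and 13.5 (7.36 to 22.6) at 8 wpt. It was found in 57 of 1243 of these cells, of which 54 had no CD3 UMI and 56 had a CD14, FCN1 or VCAN UMI. B cells, which should lack CD4, had 6.90 CPM (1.88 to 17.7) in Pre-IS and 2.07 (0.0525 to 11.5) at 4 wpt. Their 8 wpt level was 14.9 CPM (5.45 to 32.3), no lower than in CD14+ monocytes. In Pre-IS, 4 wpt and 8 wpt the B cell interval overlapped the CD14+ one. How much of the CD14+ level came from RNA outside the cells was not tested. In MS4A7+ monocytes CD4 stood at 10.0 CPM (0.253 to 55.7) in Pre-IS, 50.8 (20.4 to 105) in Post-IS, 27.3 (14.5 to 46.6) at 4 wpt and 117 (68.0 to 187) at 8 wpt. The 8 wpt value was high and met the interval of Post-IS but not those of 4 wpt and Pre-IS. It rests on 17 UMIs in 12 of 65 cells, 11 of them without CD3. At equal depth the MS4A7+ shares were 1.90%, 2.91%, 2.07% and 9.26%, against 7.67% to 10.5% in T cells. CD8A was found in 4 of 1243 CD14+ monocytes and CD8B in 3, and 1 cell at 4 wpt held 7 of the 10 CD8A UMIs. In MS4A7+ monocytes CD8A had 1 UMI and CD8B 0. Cells labelled Dentritic cell had CD4 in 17 of 86.

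CD8A was found in a few B cells, and CD8B in none. In naive B cells CD8A was found in 13 of 224 cells (5.80%, 3.13 to 9.72), all 13 with a CD79A, CD79B or MS4A1 UMI and none with CD3. In other B cells it was found in 13 of 655 (1.98%, 1.06 to 3.37), of which 9 had a CD3 UMI. CD8B had 0 UMIs in the 351 B cells and 110 naive B cells of Pre-IS, which allows shares of up to 0.855% and 2.73% at 3 counts (exact upper limits 1.05% and 3.30%). CD40LG was found in 1 of 351 B cells of Pre-IS and in no naive B cell.

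The genes most like each member were sought over the 20 sums of a label in a library with at least 50 cells, by Pearson's r of log2(CPM + 10) among 7110 genes. These sums share libraries and depth, so r is a description. CD8A was closest to the kinases ZAP70 (r = 0.97), LCK (0.96) and TEC (0.96). ZAP70 stood at 292, 90.5, 230 and 248 CPM in T cells and at 479, 420 and 472 in NK cells of Pre-IS, 4 wpt and 8 wpt, so it was higher in NK than in T cells, as CD8A was. CD8B was closest to the receptor segments TRAV29DV5 (0.99) and TRBV6-1 (0.98) and to CA6, a secreted carbonic anhydrase (0.99). CD40LG was closest to ICOS (0.98), TRAV29DV5 (0.98) and TRBV6-1 (0.98). Between CD40LG and CD8B r was 0.97 over these sums, although few CD8-only T cells held CD40LG. Both genes were near 0 in the sums of labels other than T cells, and proliferating cells were too few to enter. CD4 was closest to TIAM1 (0.89), the sphingomyelinase SMPD2 (0.80) and the zinc transporter SLC30A7 (0.74). With CD8A its r was -0.03.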

How the data were processed

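The authors deposited, per library, a table of raw UMI counts (whole numbers, no normalization) and a table with a cell label per barcode. Per the submitters' processing notes, Cell Ranger 3.1.0, Seurat 3.2.3 and the build Mmul_10 were used. How cells and genes were chosen, and doublets treated, is not given in the sources used here. Of 2559 rows named by an identifier, 400 were given symbols from the reference table, CD8B among them. UMIs were summed per label and library and divided by that total (CPM). Intervals are exact at 95%: Poisson for levels, Clopper-Pearson for shares, conditional binomial for ratios. A sum of 0 was set to a floor of 3 counts for folds. T-labelled cells with at least 2 B cell or 2 monocyte UMIs, or over 3 times the median depth of their label and library, counted as possible doublets. Thinning drew 1000 UMIs per cell, as the mean of 20 draws with a fixed seed. The ratio, call and thinning steps were tested on simulated data. Python 3.11.15, NumPy 2.4.6, SciPy 1.17.1, pandas 2.3.3 and, for alternative scalings of the sums, edgeR 4.0.16 and DESeq2 1.42.0 were used.

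Named genes are the members, the 3 genes of highest r with each member, up to 8 genes per direction with the largest smallest ratio between CD4-only and CD8-only cells over 3 libraries, and list genes with most UMIs. The members and lists were chosen with earlier results of these data known. Of the listed genes, GZMH, KLRK1, ZNF683 and NFKB2 did not match a row.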

Additional observations from a re-analysis of the deposited data

How the results depend on the processing

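The 192 alternative values of the T cell ratios of the 4 genes (other scalings, equal cell weights, thinning, CD3-positive cells, proliferating cells added, possible doublets left out) all lay inside the 95% interval of the value given, as did the 14 for the CD8B share and the 7 for CD40LG between classes. No thinned CD40LG fold exists for Post-IS, where both classes were at or under the floor. The CD4-only share lay outside its interval in 9 of 32 alternatives. With at least 2 UMIs required it was 16.7% in Pre-IS, 0% in Post-IS, 25.4% at 4 wpt and 17.2% at 8 wpt. The 0% was fixed by the rule, since no Post-IS T cell held more than 1 CD4 UMI. Thinned, it was 32.4% at 4 wpt and 28.0% at 8 wpt, and by CD8B alone 62.9% in Pre-IS, 63.6% at 4 wpt and 54.4% at 8 wpt. For CD4-only over CD8-only cells, helper and naive genes called higher numbered 8 in Pre-IS and 8 at 8 wpt. With a minimum of 50 UMIs they were 5 at 8 wpt. With no minimum beyond 1 UMI the counts were 13 and 13. A 0 is set to 3 counts there, so a gene with 0 UMIs in CD4-only cells can be called higher. These 13 are therefore no count of genes higher in CD4-only cells. At 2-fold, 0 cytotoxic genes were higher in Pre-IS in place of 1. Other list counts moved by more than 1.5 times mostly where they were small. At 2-fold, cytotoxic genes lower at 4 wpt were 2 in place of 6, helper and naive genes higher were 1 in place of 4 in Post-IS and 0 in place of 3 at 4 wpt, and signalling genes lower in Post-IS were 2 in place of 5. In all, 28 of 120 list counts between libraries and 25 of 90 between classes moved so. Of these, 9 and 6 came with no minimum beyond 1 UMI, where the floor can add calls. The cause was not tested. Post-IS, with 115 T cells, limits all its values. No paired analysis was possible because each group is 1 library.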
